A study of Homo sapiens with 6 samples.

Results

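The comparison described here sets the array labelled MATE2 siRNA against the control array, 2 of the 6 arrays of a series on HSC3 cells, an established human line that came from a tongue squamous carcinoma. By their labels, the 6 arrays carried RNA of HSC3 cells given either the control treatment or an siRNA against MIA, MIA2, TANGO, MATE2 or LEMD1, with 1 array for each. The array section of the study's methods calls its control cells untreated, whereas the deposited design names a control siRNA, so that the control array may or may not include a transfection. An siRNA is a short double-stranded RNA that lowers the transcript it matches. The measurements were chosen by array label and spot quality alone: of 53103 gene probes that were masked on no array, 26648 had a spot flagged as good on both arrays. Counted by gene, 12546 of 18725 named genes were measured on both.

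MATE2 is a name of SLC47A2, a membrane transporter of the multidrug and toxin extrusion family. These transporters sit mainly in kidney and liver membranes and export organic cations, among them several drugs, in exchange for protons. TANGO is a name of MIA3, a protein of the endoplasmic reticulum exit sites that helps to load large cargo for secretion, and MIA and MIA2 are its relatives. Oral squamous carcinoma cells come from a stratified epithelium, in which basal cells attach to the basement membrane and divide, while cells above them switch to keratins, small proline-rich proteins and proteases of the differentiated layers.

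Signal is the brightness of a spot above its local background after quantile normalization over the 6 arrays, in arbitrary units, and differences are given as log2 ratios of the array labelled MATE2 siRNA to the control array. A number in brackets after a pair of signals is their log2 ratio. A gene was counted as lower or higher at a ratio of 2-fold or more, that is 1 or more on the log2 scale in either direction. Each side of the comparison is 1 array, so the ratios carry neither an error nor a p-value and no replicate can check them; it is the number of arrays that sets the precision. When probes were split into 10 groups by their signal, the log2 ratio to control had a robust SD of 0.385 to 0.564 on the array labelled MATE2 siRNA and 0.239 to 0.323 on the array labelled MIA siRNA, values that hold real differences as well as noise. A signal is compared here only with that of the same probe on other arrays, and probes of closely related genes, such as keratins, small proline-rich proteins, histones and aldo-keto reductases, may share signal.

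Some arrays stood apart from the rest. Over 23444 probes good on all 6 arrays, the log2 signal of the control array correlated with that of the arrays labelled MIA, LEMD1, MIA2, TANGO and MATE2 siRNA at Pearson's r of 0.975, 0.948, 0.925, 0.888 and 0.881, across probes that are not independent. The arrays labelled TANGO and MATE2 siRNA therefore lay farthest from control, and they correlated with each other at 0.909. The array labelled MATE2 siRNA correlated nearly as highly with those labelled MIA, MIA2 and LEMD1 siRNA, at 0.902, 0.888 and 0.887. A check for mixed-up samples on 2 genes outside all lists put 4 of the 6 arrays together, control among them, and 2 apart from them, the array labelled MATE2 siRNA among these. What the siRNA did and any other difference between the cultures, including which cells they held, cannot be told apart with 1 array for each label, and each value is that of the array so labelled.

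The probe of SLC47A2, the gene named by the siRNA, read 1509.8 in normalized signal on the control array and 79.6 on the array labelled MATE2 siRNA, a log2 ratio of -4.25. On the arrays labelled MIA, MIA2 and LEMD1 siRNA its signal was 1334, 1575 and 1703, and on the array labelled TANGO siRNA it was 58.9. The spot was good on all 6 arrays. The gene was thus low on the arrays labelled MATE2 and TANGO siRNA and high on the other 4. Its level does not separate the MATE2 label from the TANGO label. Its relative SLC47A1 and the secreted protein genes MIA and OTOR were near background on all 6 arrays, and no probe was named MIA3. The probe of MIA2 with good spots read 155 on control and 238 on the array labelled MATE2 siRNA, less than 2-fold apart. Another probe named MIA2 was near background on all 6 arrays. LEMD1, a cancer-testis antigen of the LEM domain family, read 278 on control and 1011 on the array labelled MATE2 siRNA, a log2 ratio of 1.86, and 3192 on the array labelled TANGO siRNA. The spot of LEMD1 was near background on the arrays labelled MIA2 and LEMD1 siRNA.

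Among the probes good on both arrays, 7.55% were lower on the array labelled MATE2 siRNA and 5.05%, or 1345, were higher. Counted by gene, 1466, or 11.7%, were lower and 746, or 5.95%, were higher, and the median log2 ratio over the 12546 genes was -0.034. The counts of list members given below are to be read beside these shares, and for several lists they lie near them. At 4-fold 204 genes were lower and 93 higher, at 8-fold 40 and 24, and at 16-fold 9 and 8. Against the same control array, the probe counts were 1694 lower and 1207 higher on the array labelled TANGO siRNA, 969 and 747 for MIA2, 707 and 429 for LEMD1, and 85 and 157 for MIA.

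**Figure D1:**
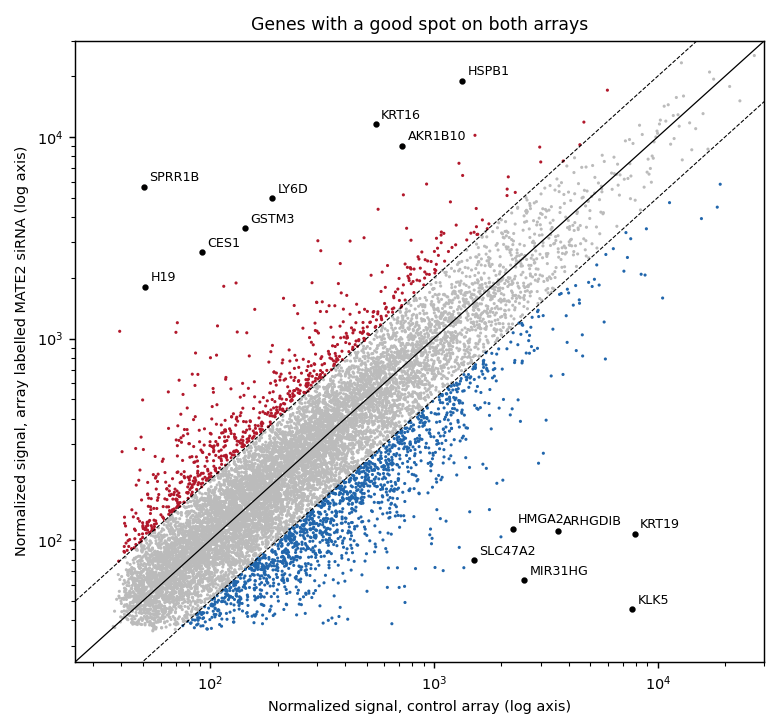
Normalized signal of 12546 genes on the control array (horizontal) and on the array labelled MATE2 siRNA (vertical), both on log axes in arbitrary units, 1 point per gene. The solid line marks equal signal and the dashed lines 2-fold; 1466 genes lie below the lower dashed line (blue) and 746 above the upper dashed line (red), with the labelled genes in black.

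The 12 largest falls, taken over genes measured well on both sides, went from signals of 649 to 7883 on control to 38.5 to 114 here, where the lowest good spot read 31.4. Genes near background here, some with larger falls by their bounds, are described further on. KLK5, a trypsin-like kallikrein that activates other proteases of the epidermis, went from 7694 on control to 45.5, a log2 ratio of -7.40. It read 6261, 3274 and 2922 on the arrays labelled MIA, MIA2 and LEMD1 siRNA and was near background on the array labelled TANGO siRNA. KRT19, a keratin of simple and basal epithelium, went from 7883 to 108, a log2 ratio of -6.19. On the arrays labelled MIA, MIA2 and LEMD1 siRNA KRT19 read 7579, 14792 and 15098, and on the array labelled TANGO siRNA 68.4, so that 4 arrays were high and 2 low, without overlap. MIR31HG, the long noncoding RNA that hosts a microRNA, fell from 2527 to 63.4 (-5.32 on the log2 scale), and the other 4 arrays lay from 349 to 2309.7. ARHGDIB, an inhibitor of small GTPases, had a log2 ratio of -5.00, and ARHGAP10, which switches small GTPases off, one of -4.07. RAB31, a GTPase of vesicle transport, read 1993 on control and 104 here, a log2 ratio of -4.26. The remaining genes of the 12 largest falls were, beside SLC47A2, the chromatin protein HMGA2 at -4.30, the metalloproteinase ADAM8 at -4.22, the tetraspanin TSPAN4 at -3.96, the secreted proteoglycan ESM1 at -3.92 and the lysosomal protease CTSS at -3.82, with its other good probe at -4.17. ESM1 was also low on the arrays labelled MIA2, LEMD1 and TANGO siRNA, at 67.6, 48.5 and 46.8 beside 743 on control and 49.1 here.

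The 12 largest rises held SPRR1B, SPRR1A and KRT16, members of the keratinocyte lists described further on. SPRR1B, a small proline-rich protein of the cornified envelope, went from 50.5 on control to 5652, a log2 ratio of 6.81. It read 6572 on the array labelled TANGO siRNA. LY6D, a surface protein of keratinocytes, went from 189 to 4972 (4.72), and KRT16, a keratin of activated keratinocytes, from 549 to 11539 (4.39). H19, an imprinted noncoding RNA, read 51.3 on control, 1805 here, 3776 on the array labelled TANGO siRNA and 48.8 and 57.5 on the arrays labelled MIA and LEMD1 siRNA, and was near background on the array labelled MIA2 siRNA. It was thus high on the same 2 arrays on which KRT19 and SLC47A2 were low. CES1, a carboxylesterase that hydrolyses esters and drugs, was high on the array labelled MATE2 siRNA, at 2689.7, beside 91.9 on control and 108 on the array labelled TANGO siRNA, and its 2 probes had log2 ratios of 4.87 and 6.23. ANXA10, a member of the annexin family, read 39.4 on control and 1087 here, a log2 ratio of 4.79. The others were the glutathione transferase GSTM3 at 4.62, the LIM protein CSRP2 at 4.07, the stress-induced cytokine GDF15 at 3.98, SPRR1A at 3.93, the secreted glycoprotein STC2 at 3.85 and the small heat shock protein HSPB1 at 3.83. SPRR1A and HSPB1 read 1404 and 18468 on the array labelled TANGO siRNA, beside 1074 and 19038 here.

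**Figure D2:**
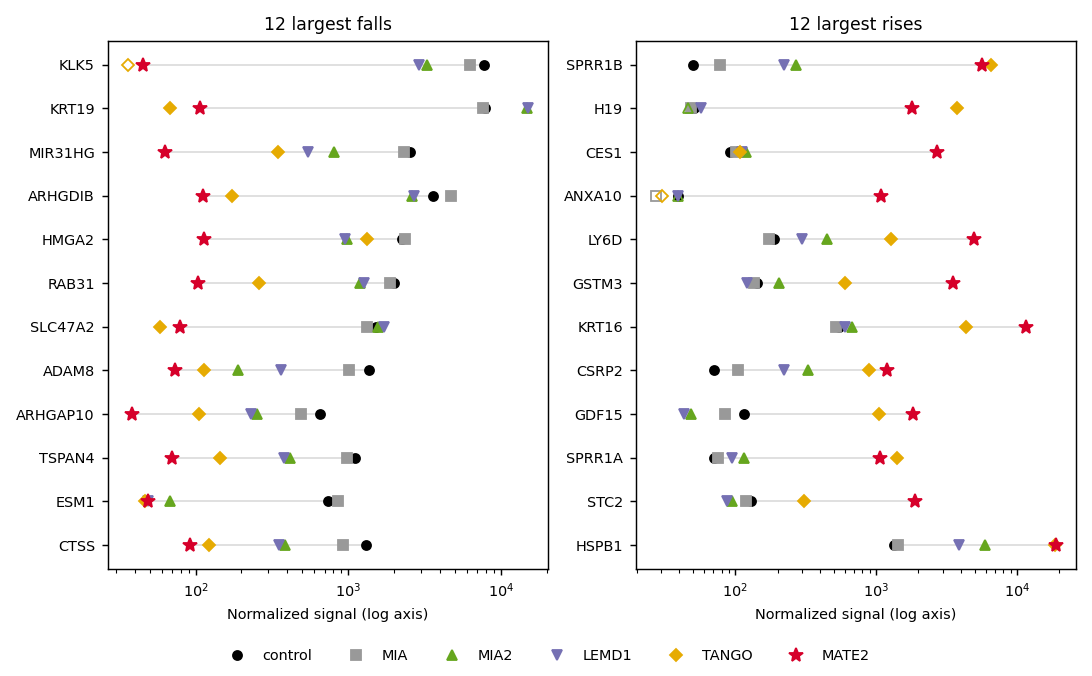
Normalized signal (log axis, arbitrary units) on each of the 6 arrays for the 12 genes with the largest falls (left) and the 12 with the largest rises (right) on the array labelled MATE2 siRNA against control. Open symbols are spots flagged near background. Filled symbols are good spots, except GSTM3 on the array labelled MIA siRNA, which had another flag. The array labelled TANGO siRNA (diamond) lies near the array labelled MATE2 siRNA (star) for KRT19, SLC47A2, SPRR1B and H19 and near the control array (circle) for CES1.

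Several genes of squamous differentiation were higher than on control, while several genes that anchor basal cells were lower. Of 14 measured genes of the cornified envelope and squamous differentiation, 5 were higher and none lower, with a median log2 ratio of 0.44. The share higher was 35.7% beside 5.95% of all genes. SPRR3, another small proline-rich protein, read 108 on control and 1156 here (3.42), and KRT4, a keratin of the upper layers of mucosa, 563 and 4378 (2.96). On the array labelled TANGO siRNA SPRR3 and KRT4 read 454 and 3508. The squamous differentiation list had 6 higher members for TANGO, 4 for MIA2, 3 for LEMD1 and 0 for MIA. Its medians there were 0.92, 0.66, 0.46 and 0.14. Set against the other 5 arrays' median, the list was at -0.026, so its sign rests on the comparator. Of 11 desmosome genes, which hold epithelial cells together, 4 cadherins were higher, DSC2 at 1.82, DSG3 at 1.55, DSG1 at 1.36 and DSC3 at 1.32, and 1 gene was lower. The shares of this list were 36.4% higher and 9.09% lower, beside 5.95% and 11.7% of all genes. The other probe of DSC2 read 0.19, and on the array labelled TANGO siRNA the signals of DSG3 and DSC3 were higher still, at 1613 and 1859 beside 389 and 487 here.

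Kallikreins and the inhibitors that restrain them did not move as a block. Of 14 measured, 5 were higher and 1, KLK5, was lower, with a median of 0.31. The shares were 35.7% higher and 7.14% lower, beside 5.95% and 11.7% of all genes. SPINK5, the inhibitor of epidermal kallikreins, read 75.6 on control, 528 here and 5307 on the array labelled TANGO siRNA. SLPI, a secreted inhibitor of leukocyte elastase, read 381 on control and 2356 here (2.63), although its other good probe had a log2 ratio of 0.50, and the serpin SERPINB13 was at 1.16. Of 10 S100 calcium-binding proteins, 4 were higher, or 40% beside 5.95% of all genes, and none lower. These were S100A4 at 2.85 with another probe at -0.24, S100P at 1.39, S100A2 at 1.34 with another probe at 0.41, and S100A7 at 1.19. S100A2 was also high on the arrays labelled MIA2 and LEMD1 siRNA, and set against the other 5 arrays' median its log2 ratio was -0.058.

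Among 17 genes of basal keratinocytes and of the hemidesmosome, which ties them to the basement membrane, 7 were lower and 3 higher, with a median of -0.52. That is 41.2% lower and 17.6% higher, beside 11.7% and 5.95% of all genes. LAMA3, a chain of the anchoring laminin, read 4327 on control and 872 here, a log2 ratio of -2.31. It was also below control on the arrays labelled MIA2, LEMD1 and TANGO siRNA, where it read 1314, 2194 and 425. The higher members included KRT16 and KRT17, a keratin of activated and basal keratinocytes that read 83.2 on control, 666 here and at most 122 on the other 4 arrays. Of 12 genes of epithelial to mesenchymal transition, 3 were lower, or 25% beside 11.7% of all genes, and none higher. The 3 were the matrix genes SPARC at -2.07 and FN1 at -1.87, and the transcription factor SOX9 at -1.62. SOX9 was lower still on the arrays labelled MIA2 and LEMD1 siRNA, at 136 and 176 beside 432 here, and set against the other 5 arrays' median its log2 ratio was 0.28.

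AP-1 is a pair of proteins of the FOS and JUN families that binds promoters of many keratinocyte genes. In the 250 bases before the start site, taken from RefSeq (GRCh38.p14), the AP-1 letters TGANTCA were found on either strand in 4 of the 8 measured genes of squamous differentiation with a promoter in the table, against 6.60% of 27305 promoters. The 3 higher genes among them are shown, 5′ to 3′ on the strand of the gene, because they led the list, with the AP-1 letters in capitals.
SPRR1A: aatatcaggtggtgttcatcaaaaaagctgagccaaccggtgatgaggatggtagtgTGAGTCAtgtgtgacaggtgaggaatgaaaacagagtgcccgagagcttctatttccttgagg
SPRR1B: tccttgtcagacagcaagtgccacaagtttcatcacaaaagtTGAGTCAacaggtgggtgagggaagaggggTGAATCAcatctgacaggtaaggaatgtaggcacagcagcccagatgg
SPRR3: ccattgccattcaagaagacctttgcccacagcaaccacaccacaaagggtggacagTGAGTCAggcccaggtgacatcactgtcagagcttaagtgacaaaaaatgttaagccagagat
The stretches lie at chr1:152983916-152984035 (plus strand), chr1:153031020-153031139 (plus strand) and chr1:153001522-153001641 (plus strand). Of 19 AP-1 and immediate early genes, 2 were higher and 1 lower, with a median of 0.070. These were KLF4, a factor of the differentiating layers, at 1.27 with another probe at 0.94, FOSB at 1.07, and FOS at -1.01. Their shares were 10.5% higher and 5.26% lower, beside 5.95% and 11.7% of all genes.

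Interferon-stimulated genes were lower at a share above that of all genes. Of 37 measured, 12 were lower and 1 higher, that is 32.4% lower beside 11.7% of all genes, with a median of -0.64. IRF1, a transcription factor of the interferon response, read 609 on control and 90.9 here, a log2 ratio of -2.75. IFIT3, which acts with other IFIT proteins on foreign RNA, read 1229.6 on control, 242 here and 699 on the array labelled TANGO siRNA. IFI27, a mitochondrial protein induced by interferon, read 1804 on control, 357 here and 1417 to 2809 on the other 4 arrays, so that it was low here alone. BST2, a surface protein that tethers enveloped viruses, went the other way, from 118 to 642, and read 1008 on the array labelled TANGO siRNA. On the other arrays the list had 7 lower and 2 higher members for TANGO, 4 and 0 for LEMD1, 3 and 0 for MIA2, and 0 and 0 for MIA. Of 12 genes of MHC class I and its peptide loading, which show peptides to T cells, 3 were lower and none higher: the peptide trimming enzyme ERAP2 at -2.92, HLA-G at -1.28 and the proteasome subunit PSMB8 at -1.19. The share lower was 25% beside 11.7% of all genes. The MHC list had 7 lower members for TANGO, 3 for LEMD1, 3 for MIA2 and 0 for MIA, and none higher. Set against the other 5 arrays' median, HLA-G was at -0.56 and PSMB8 at -0.95.

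The interferon-stimulated response element is bound by IRF and STAT factors. Its core, GAAA followed after any 2 bases by GAAA, was found on either strand in the 250 bases before the start of 16 of 30 measured list members with a promoter in the table, against 3.07% of all promoters, and in 4 of the 11 lower ones. The 4 lower genes and BST2, the higher one, are shown with these letters in capitals, since members with the letters moved in either direction.
IFIT3: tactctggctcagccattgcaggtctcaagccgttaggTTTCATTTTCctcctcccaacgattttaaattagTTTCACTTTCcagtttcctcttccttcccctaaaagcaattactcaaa
IFI27: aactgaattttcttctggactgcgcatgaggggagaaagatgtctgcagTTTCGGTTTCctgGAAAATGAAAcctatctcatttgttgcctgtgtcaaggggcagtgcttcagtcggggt
HERC5: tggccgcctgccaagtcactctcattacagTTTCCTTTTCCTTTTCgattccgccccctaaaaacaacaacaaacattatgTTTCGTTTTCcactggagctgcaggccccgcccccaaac
IFI44L: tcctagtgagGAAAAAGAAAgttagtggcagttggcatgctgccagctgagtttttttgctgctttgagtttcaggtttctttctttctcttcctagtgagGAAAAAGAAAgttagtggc
BST2: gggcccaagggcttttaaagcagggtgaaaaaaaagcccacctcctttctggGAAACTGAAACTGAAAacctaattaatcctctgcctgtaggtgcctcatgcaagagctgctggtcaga
They lie at chr10:89327803-89327922 (plus strand), chr14:94110579-94110698 (plus strand), chr4:88456964-88457083 (plus strand), chr1:78620274-78620393 (plus strand) and chr19:17405693-17405812 (minus strand). A match is a description of the letters and not a bound site.

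Targets of YAP, the coactivator that works through TEAD factors when cells are spread and sparse, had the lowest median of the 37 lists. Of 14 measured, 8 were lower and none higher, with a median log2 ratio of -1.21, or -0.68 when set against the other 5 arrays' median. The share lower was 57.1% beside 11.7% of all genes. F3, tissue factor, read 4621 on control and 819.6 here (-2.50), and the matricellular gene CCN2 178 and 40.8 (-2.13). LATS2, the kinase that restrains YAP, was at -1.80, and TEAD1, a DNA-binding partner of YAP, at -1.78, with its 3 other good probes at -0.079, -0.99 and -0.087. The array labelled TANGO siRNA had 8 of these genes lower as well, with F3 at 856, TEAD1 at 314 and CCN2 near background. The TEAD letters GGAATG were on either strand in the promoter window of 3 of 10 measured members, against 11.9% of all promoters, and of the 5 lower members with a promoter in the table CCN2 alone held them.
CCN2: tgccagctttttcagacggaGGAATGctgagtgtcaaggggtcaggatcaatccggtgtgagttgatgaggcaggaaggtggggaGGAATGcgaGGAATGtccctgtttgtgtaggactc
This stretch lies at chr6:131951442-131951561 (minus strand) and carries the letters 3 times.

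Genes that respond to TGF-beta and BMP, growth factors of the same family, were split. Of 14 measured, 3 were higher and 2 lower, or 21.4% and 14.3% beside 5.95% and 11.7% of all genes. ID3 and ID1, inhibitors of differentiation and direct BMP targets, read 146 and 117 on control and 1068 and 347 here, log2 ratios of 2.87 and 1.57, and 3238 and 1170.2 on the array labelled TANGO siRNA. Of 16 genes of ERK output and feedback, which report on growth factor signalling, 5 were lower and none higher, with a median of -0.39. In this list 31.25% were lower beside 11.7% of all genes. PHLDA1 was at -1.71, the ERK phosphatase DUSP6 at -1.35, the ETS factor ETV1 at -1.16 and the EGF receptor ligand TGFA at -1.11. DUSP6 read 350.4 on control, 138 here, 362 on the array labelled TANGO siRNA and 57.3 and 58.8 on the arrays labelled MIA2 and LEMD1 siRNA. The array labelled MATE2 siRNA was thus between control and the last pair for this gene.

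**Figure D3:**
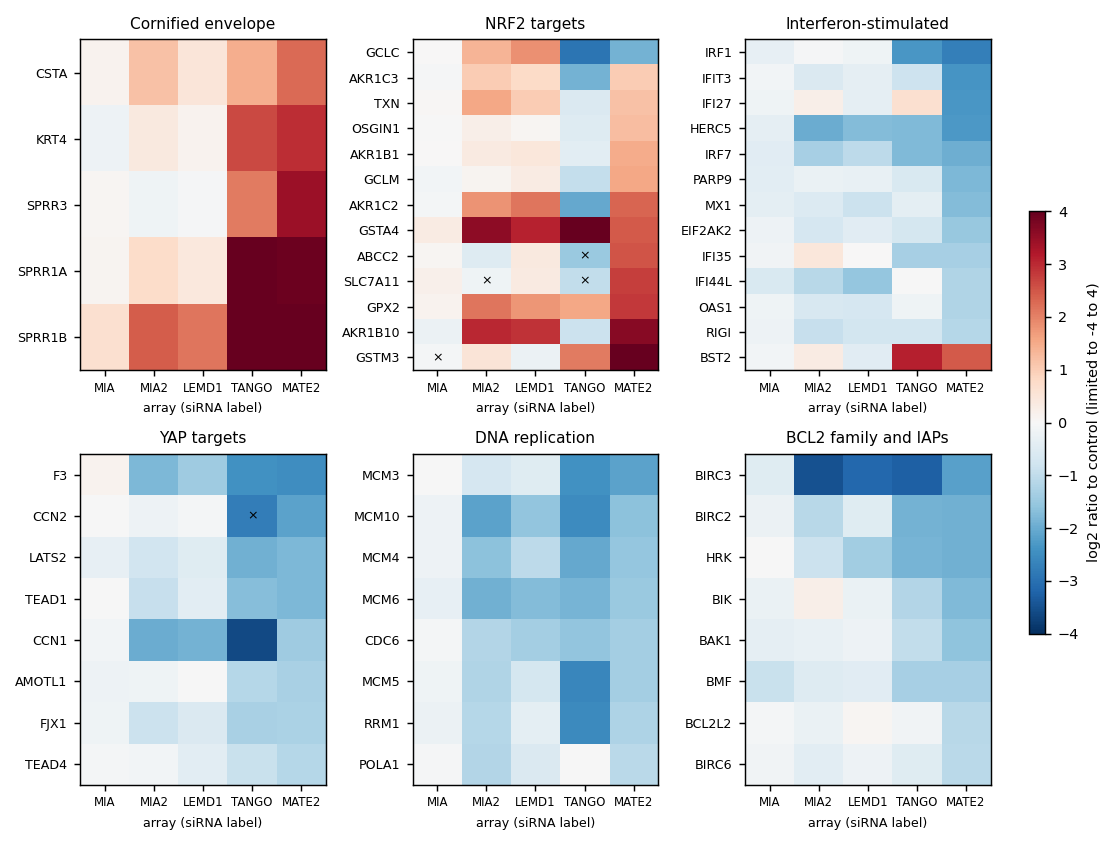
Colour shows the log2 ratio to the control array, limited to -4 to 4, for the members of 6 lists that were 2-fold lower or higher on the array labelled MATE2 siRNA (last column), beside the arrays labelled MIA, MIA2, LEMD1 and TANGO siRNA. All columns share 1 control array, and a cross marks a spot not flagged as good; AKR1B10 and GCLM are red in the last column and blue for TANGO, whereas most YAP targets are blue in both.

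NRF2 is the transcription factor that answers oxidants and electrophiles, and its targets make glutathione, conjugate toxins or reduce carbonyls. This list had the highest median of the 37: of 24 measured NRF2 target and aldo-keto reductase genes, 12 were higher, or 50%, beside 5.95% of all genes, 1 was lower, and the median log2 ratio was 0.96. AKR1B10, an aldo-keto reductase, read 720.2 on control and 9064 here (3.65). It read 5868 and 5294 on the arrays labelled MIA2 and LEMD1 siRNA, 618 for MIA, and 398 for TANGO, so that 3 arrays were high and 3 low. GPX2, an epithelial glutathione peroxidase, read 730.2 on control and 5161 here (2.82), and SLC7A11, which imports cystine for glutathione, 40.4 and 275 (2.77). GSTM3, named above, read 143 on control, 3516 here and 601 on the array labelled TANGO siRNA. GCLC, the catalytic subunit of the first enzyme of glutathione synthesis, was the lower member, at -1.89, while its regulatory partner GCLM was at 1.53. On the other arrays the list had 3 higher and 8 lower members for TANGO (median -0.79), 8 and 0 for MIA2, 7 and 0 for LEMD1, and none either way for MIA. The arrays labelled MATE2 and TANGO siRNA, close for many genes above, thus lay on opposite sides of the control array, which both share, for this list.

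The antioxidant response element is bound by NRF2 with a small MAF protein. Its core letters TGACNNNGC, which can overlap the AP-1 letters, were found on either strand in the windows of 5 of 17 measured members with a promoter in the table and of 3 of the 10 higher ones, against 11.03% of all promoters. The 3 higher genes are shown with these letters in capitals.
GPX2: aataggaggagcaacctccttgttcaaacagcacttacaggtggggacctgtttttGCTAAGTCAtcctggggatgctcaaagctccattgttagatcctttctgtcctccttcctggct
GSTA4: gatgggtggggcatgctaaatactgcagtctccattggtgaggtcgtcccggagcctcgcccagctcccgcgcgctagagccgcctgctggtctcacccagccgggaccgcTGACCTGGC
GCLM: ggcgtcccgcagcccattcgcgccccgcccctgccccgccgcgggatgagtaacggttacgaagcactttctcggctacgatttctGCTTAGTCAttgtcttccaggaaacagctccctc
They lie at chr14:64942804-64942923 (minus strand), chr6:52995285-52995404 (minus strand) and chr1:93909431-93909550 (minus strand).

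Of 7 measured cation and organic cation transporters, SLC47A2 alone was lower and none was higher, with a median of 0.12. Of 8 drug efflux pumps, ABCC2, which exports conjugated drugs and is also an NRF2 target, was higher at 2.52, from 79.0 to 453, and the copper pump ATP7A was lower at -1.06. Of 19 genes of the MIA family and of COPII coats, which carry cargo out of the endoplasmic reticulum, 2 were higher and 2 lower: the coat subunits SEC13 at 1.51 and SEC23B at 1.09, SEC24B at -1.22, and MCFD2, a cargo receptor subunit, at -1.61. The shares of this list were 10.5% each way, beside 5.95% of all genes higher and 11.7% lower. Of the cation transporters 14.3% were lower, and of the efflux pumps 12.5% were changed each way. MCFD2 was at -0.41 when set against the other 5 arrays' median. The ratios of ATP7A, SEC23B and SEC24B were under 2-fold when 50 was added to the signal. The same held for other named genes, which are listed at the end.

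ATF4 is the factor that cells use under amino acid shortage and other stress. Of 26 measured ATF4 response genes, 7 were higher, or 26.9% beside 5.95% of all genes, and none lower, with a median of 0.34. STC2 read 130.5 on control, 1887 here and 309 on the array labelled TANGO siRNA. DDIT3, the stress factor CHOP, read 340.1 on control and 1456 here (2.10), with 512 on the array labelled TANGO siRNA, and SARS1, a transfer RNA synthetase, was at 1.49. Of 17 chaperones of the endoplasmic reticulum, 3 were higher and none lower, SEC61B of the translocation channel at 1.34, MANF at 1.12 and DNAJB11 at 1.03. Their share higher was 17.6% beside 5.95% of all genes. In the list of cholesterol synthesis, 3 of 29 genes were higher and 1 lower, with a median of 0.41. That is 10.3% higher and 3.45% lower, beside 5.95% and 11.7% of all genes. CYP51A1 was at 2.29, HMGCS1 at 1.70 and DHCR7 at 1.06, while TM7SF2, a sterol reductase, was at -1.36.

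DNA replication genes were lower in greater number than mitotic genes. Of 31 genes of replication and S phase, 8 were lower, or 25.8% beside 11.7% of all genes, and none higher, with a median of -0.52. Of 29 mitotic genes 3 were lower and 2 higher, with a median of -0.11. The mitotic shares, 10.3% lower and 6.9% higher, lay near those of all genes, 11.7% and 5.95%. MCM3, a subunit of the replicative helicase, read 634 on control and 144 here (-2.14), MCM10, which helps to start replication forks, was at -1.65, and the helicase subunits MCM4 and MCM6 were at -1.56 and -1.50. The replication list was lower on 3 of the other arrays as well, with 21 members lower for TANGO, 15 for MIA2 and 12 for LEMD1, and set against the other 5 arrays' median the list was at 0.12 and MCM6 at 0.25. Of the mitotic genes, UBE2C, a ubiquitin-conjugating enzyme of mitotic exit, read 1027 on control and 3143 here (1.61) but 308 on the array labelled TANGO siRNA, and CKS2, a partner of cyclin-dependent kinases, was at 1.60. The kinesins KIF23 and KIF11 were at -1.42 and -1.39. The mitotic list had 15 lower and no higher members on the array labelled TANGO siRNA, and no lower and 11 and 7 higher members on the arrays labelled LEMD1 and MIA2 siRNA.

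Of 13 histone genes, 5 were higher and 1 lower, with H2BC21 at 3.03, H2BC4 at 1.43, H2BC5 at 1.21 and H4C14 at -1.26. Their shares were 38.5% higher and 7.69% lower, beside 5.95% and 11.7% of all genes. Histone genes were also higher for LEMD1, MIA2 and TANGO, 6, 4 and 3 of them. The median was 0.94 for LEMD1 and 0.85 for MIA2 beside 0.26 here. Of 19 BCL2 family members and inhibitors of apoptosis, 8 were lower and none higher, with a median of -0.32. The share lower was 42.1% beside 11.7% of all genes. The 8 lower genes held members of both actions: the inhibitors BIRC3 and BIRC2 at -2.16 and -1.92, and the death-promoting HRK and BIK at -1.92 and -1.75. The list held NOXA1, which is an activator of NADPH oxidase and no BCL2 family member, and did not hold the death-promoting family member PMAIP1, also called NOXA. BIRC3 was lower still on the arrays labelled MIA2, LEMD1 and TANGO siRNA, at 59.9, 75.4 and 69.7 beside 149.7 here and 669.9 on control. Its log2 ratio to the median of the other 5 arrays was therefore 0.99, above that median. Of 24 p53 target genes, GADD45A at 1.51 and PMAIP1 at 1.40 were higher and the DNA repair gene DDB2 at -1.45 was lower. The p53 shares were 8.33% higher and 4.17% lower, beside 5.95% and 11.7% of all genes.

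Nuclear-encoded genes of the mitochondrion were higher more often than lower. Of 30 subunits of respiratory complex I, the entry of the electron transport chain, 9 were higher and none lower, with a median of 0.53. The share higher was 30% beside 5.95% of all genes. NDUFB9 read 883 on control and 2688 here (1.61), and NDUFC2, NDUFA12 and NDUFA11 were at 1.43, 1.41 and 1.33, the last with another probe at 0.72. Complex I members were also higher on the array labelled MIA2 siRNA, 7 of them, but 1 on that labelled TANGO siRNA. Of 67 mitochondrial ribosomal proteins, 7 were higher and 2 lower, with a median of 0.35. Their shares were 10.4% higher and 2.99% lower, beside 5.95% and 11.7% of all genes. On the other arrays 7 were higher and 2 lower for TANGO, 7 and 0 for MIA2, 4 and 2 for LEMD1, and 0 and 0 for MIA. MRPS10 was at 2.02, MRPL42 at 1.58, MRPL14 at 1.57 and MRPL2 at 1.57, and MRPL2 read 8112 and 7514 on the arrays labelled MIA2 and LEMD1 siRNA beside 1795 here, which gave a log2 ratio of -0.46 to the median of the other 5. Glycolysis and hypoxia genes were split, with 4 higher and 5 lower of 26, or 15.4% and 19.2%, beside 5.95% and 11.7% of all genes. The lactate exporter SLC16A3 was at -2.02 and PFKP, which commits sugar to glycolysis, at -1.98 with another probe at 0.36, whereas the aldolase ALDOC was at 2.01 and the oxygen sensor EGLN3 at 1.68. SLC16A3 was also low on the arrays labelled TANGO, LEMD1 and MIA2 siRNA, at 172, 215 and 138 beside 162 here. Set against the median of the other 5 arrays, SLC16A3 was at -0.41 and EGLN3 at 0.54.

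**Figure D4:**
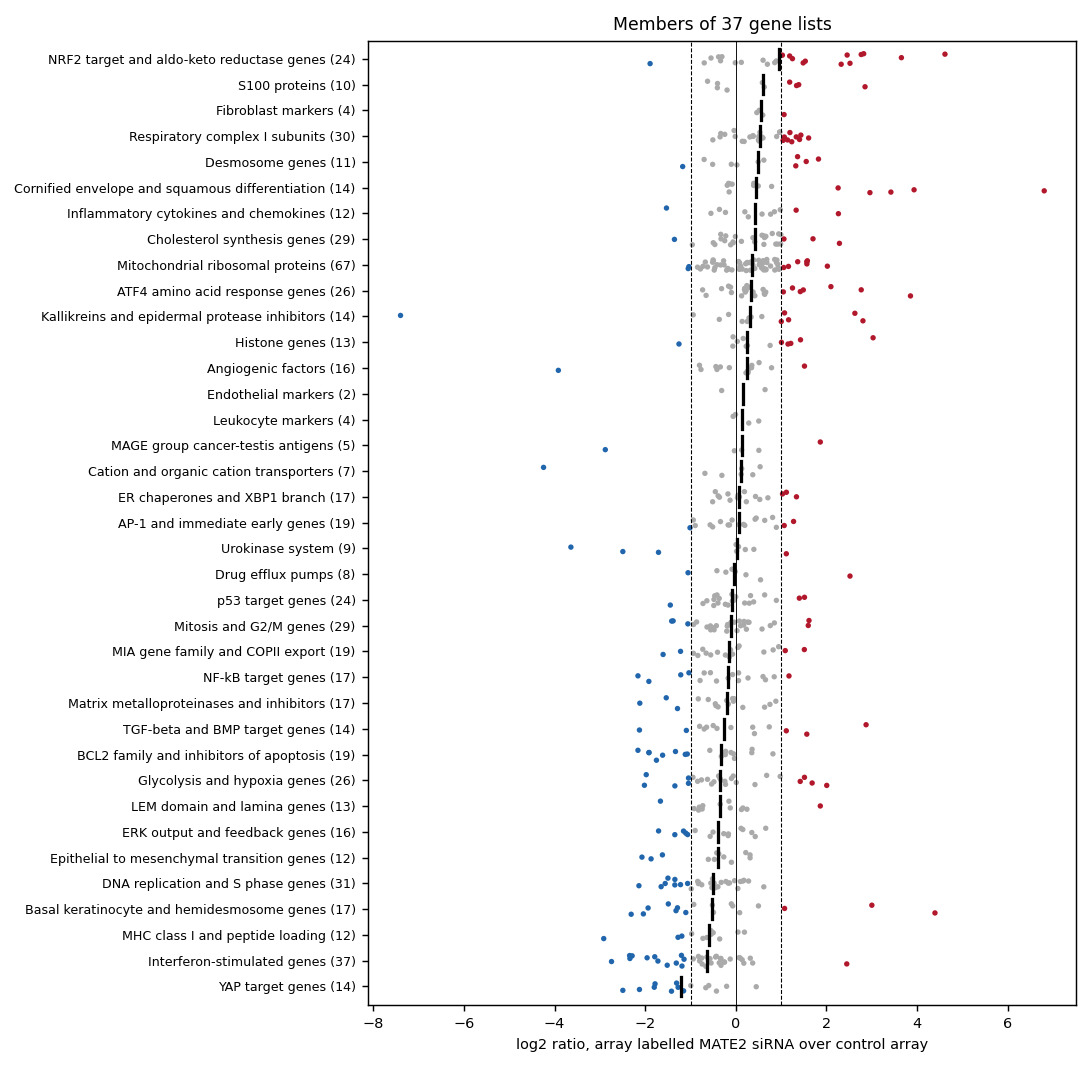
Log2 ratio of the array labelled MATE2 siRNA to the control array (horizontal) for every measured member of 37 gene lists, with the number of measured members in brackets. Each point is a gene, blue at 2-fold lower or more and red at 2-fold higher or more, and the black bar is the median, which runs from -1.21 for YAP targets to 0.96 for NRF2 targets.

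Of 9 genes of the urokinase system, which makes plasmin, 3 were lower and 1 higher: PLAT, tissue plasminogen activator, read 1770.4 on control, 142 here and 2223 on the array labelled TANGO siRNA (-3.64), and PLAU, urokinase, read 19038 and 5826 (-1.71). The shares of this list were 33.3% lower and 11.1% higher, beside 11.7% and 5.95% of all genes. PLAT was low here and on the arrays labelled MIA2 and LEMD1 siRNA, at 249 and 376, and high on the other 3. Of 17 matrix metalloproteinases and their inhibitors, 3 were lower, or 17.6% beside 11.7% of all genes, and none higher: TIMP2, an inhibitor, at -2.12, MMP7 at -1.54 and the sheddase ADAM9 at -1.29. TIMP2 was also low on the arrays labelled LEMD1 and MIA2 siRNA, at 221 and 213 beside 180 here, and near background for TANGO. Its log2 ratio to the median of the other 5 was -0.30. MMP13 of the same list was near background on control and at least 13.3-fold higher here. MMP7 read 7327 on control and 2525 here but 212 on the array labelled TANGO siRNA. Its log2 ratio to the median of the other 5 was 0.26. Of 16 angiogenic factors, VEGFA, the main growth factor of blood vessels, was higher, from 76.5 to 219 (1.51), and ESM1 was lower. This list had 6.25% changed each way, beside 5.95% of all genes higher and 11.7% lower.

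Of 12 inflammatory cytokines and chemokines, 2 were higher and 1 lower, or 16.7% and 8.33% beside 5.95% and 11.7% of all genes. CXCL8, which attracts neutrophils, read 317 on control, 1521 here and 1715 on the array labelled TANGO siRNA, IL1A was at 1.33 and the receptor IL6R at -1.53. Of 17 NF-kB target genes, 4 were lower and 1 higher, or 23.5% and 5.88%, with a median of -0.17. Beside BIRC3 and BIRC2 these included the deubiquitinase CYLD at -1.22 and the NF-kB subunit RELB at 1.17. Of 5 measured MAGE group cancer-testis antigens, MAGEA4 was lower, at 5839 on control, 792 here and 51.6 on the array labelled TANGO siRNA, and LEMD1 was higher. Another 3 of the list, MAGEA1, MAGEA12 and MAGEA11, had a good spot here and were near background on control, and they were at least 17.7-fold, 6.25-fold and 4.56-fold higher. MAGEA1 read 607 here and 682 on the array labelled TANGO siRNA, and the other two had good spots on this array alone. Of 13 LEM domain and lamina genes, LEMD1 was again the higher one, and SYNE2, which links the nucleus to the cytoskeleton, was lower at -1.67 with another probe at 0.70. The LEM list thus had 7.69% changed each way and the MAGE list 20% each way.

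The labelled cell type was checked against its markers. Of 8 squamous epithelial markers 6 had a probe, and all 6 had good spots on both arrays, with a summed signal of 11525 on control and 10170.5 here. KRT5 and KRT14, the paired keratins of basal cells, read 1558 and 5354 on control and 3283 and 2812 here. Among markers of other cells, PTPRC of leukocytes, CDH5 of endothelium and DCN of fibroblasts were near background on all 6 arrays. The summed signals were 606 to 982 over 8 fibroblast markers, 517 to 732 over 8 endothelial markers and 1119 to 1542 over 9 leukocyte markers on the 6 arrays. Of these markers with good spots on both arrays, COL1A1 alone was 2-fold higher, at 1.06 with another probe at 0.37.

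To find what the array labelled MATE2 siRNA did not share with any other array, probes good on all 6 arrays were taken that lay at least 2-fold below or above each of the other 5. Of 23444 such probes, 289, or 1.23%, were lower here than on each other array and 197, or 0.84%, higher, in 248 and 136 genes. The same counts were 162 and 172 for the array labelled TANGO siRNA, 7 and 1 for control, 7 and 1 for MIA2, 4 and 6 for LEMD1 and 1 and 0 for MIA. F8A1, a gene with near-identical copies on the X chromosome, read 241 here and 2504 to 2935 on the other 5 arrays. HMGA2, a chromatin protein of embryonic and tumour cells, read 114 here and 959 to 2361 elsewhere, and CCND2, a D-type cyclin, 68.5 and 351 to 419. Each of the 3 was low on this array and high on the other 5. The actin-binding CFL2 was at -3.34 against control, the chromatin protein NUCKS1 at -2.57, and VMA21, an assembly factor of the proton pump, at -2.29, beside IFI27 and MIR31HG. On the higher side, beside CES1, SLPI, STC2 and KRT17, CDKN1C, an imprinted inhibitor of the cell cycle, read 541 here and 42.0 to 111 on the other 5 arrays. MLF1 read 848 here and 76.6 to 139 elsewhere, and the zinc finger gene ZNF595 was at 2.23 with another probe at -0.035. PPARG, a nuclear receptor of lipid metabolism and epithelial differentiation, stood apart by a second probe at 2.31, while the probe with more signal had a log2 ratio of 0.32.

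Genes that were near background on either array have only a bound. Good spots went down to a normalized signal of 34.2 on control and 31.4 on the array labelled MATE2 siRNA, and on the dim side the gene's own signal was used or this level, whichever was higher. Of 756 genes with a good spot on control and near background here, 324 were at least 2-fold and 19 at least 8-fold lower, and 214 of the 756 were good on all the arrays but this one. Of 938 genes with the reverse, 199 were at least 2-fold and 24 at least 8-fold higher, and 221 were good here alone. The examples that follow were chosen after their values were seen. SRPX2, a secreted ligand of the urokinase receptor, read 1411 on control and was at least 44.9-fold lower here, and it read 102, 213 and 153 on the arrays labelled TANGO, LEMD1 and MIA2 siRNA. The scaffold AKAP12 was at least 30.1-fold lower, and TRIM22, an interferon-induced antiviral protein, at least 14.9-fold. On the other side, PI3, the elastase inhibitor elafin of the squamous epithelium, read 1424 here and was at least 41.6-fold higher than on control. CLDN8, a tight junction protein, MMP13, a collagenase, SERPINB2, a plasminogen activator inhibitor, and ADH7, an alcohol dehydrogenase of squamous mucosa, had good spots on this array alone and were at least 18.4-fold, 13.3-fold, 12-fold and 11.5-fold higher. S100A8, a subunit of calprotectin, and SOX2, a factor of squamous progenitors, were at least 8.64-fold and 8.33-fold higher here and read 1608 and 1953 on the array labelled TANGO siRNA beside 296 and 285 here.

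Genes were also put in their order along the chromosomes, and the median log2 ratio was taken over each run of 25 neighbouring measured genes. Over 11978 overlapping runs, the middle 95% of medians lay between -0.549 and 0.368. The 3 lowest runs that did not overlap were on chromosome 1 from USP1 to ANKRD13C, with a median of -1.08 and 13 of 25 genes lower, on chromosome 4 from GALNT7 to UFSP2, with -1.01 and 13 lower, and on chromosome 5 from BDP1 to AGGF1, with -0.88 and 11 lower. In the chromosome 1 run were the deubiquitinase USP1 at -1.78, the G protein subunit GNG12 at -1.82, PGM1 of glycogen metabolism at -1.76 and JAK1, the kinase of interferon and other cytokine receptors, at -1.72. In the chromosome 4 run were the glycosyltransferase GALNT7 at -3.19, TRAPPC11 of vesicle tethering at -2.49, CFAP97 at -2.37 with another probe at -0.89, and the centromere protein CENPU at -2.31. In the chromosome 5 run were ARHGEF28, an activator of small GTPases, at -3.58, and the protease-activated receptor F2RL1 at -2.21 with another probe at -0.83.

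The 3 highest runs were on chromosome 11 from FAM168A to EMSY, with a median of 0.76 and 10 of 25 genes higher, on chromosome 6 from RRP36 to SUPT3H, with 0.65 and 10 higher, and on chromosome 19 from CNN2 to ABHD17A, with 0.65 and 4 higher. The chromosome 11 run held the collagen chaperone SERPINH1 at 2.70, COA4 of cytochrome oxidase assembly at 2.22 with another probe at 0.995, and PPME1, a phosphatase methylesterase, at 1.77. The chromosome 6 run held MYMX at 1.82 and SLC35B2 of sulfate donor transport at 1.57, beside MRPL14 and MRPL2, and the chromosome 19 run held GPX4, the peroxidase of membrane lipids, at 1.79. On the array labelled TANGO siRNA the medians of the same runs were -0.27 on chromosome 1, -1.03 on chromosome 4, -0.33 on chromosome 5, 0.84 on chromosome 11, 0.55 on chromosome 6 and 0.58 on chromosome 19. On the arrays labelled MIA, MIA2 and LEMD1 siRNA they lay between -0.36 and 0.18. The runs on chromosomes 4, 11, 6 and 19 thus had medians of the same direction and near size on the arrays labelled MATE2 and TANGO siRNA, while those on chromosomes 1 and 5 were nearer to 0 on the array labelled TANGO siRNA.

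**Figure D5:**
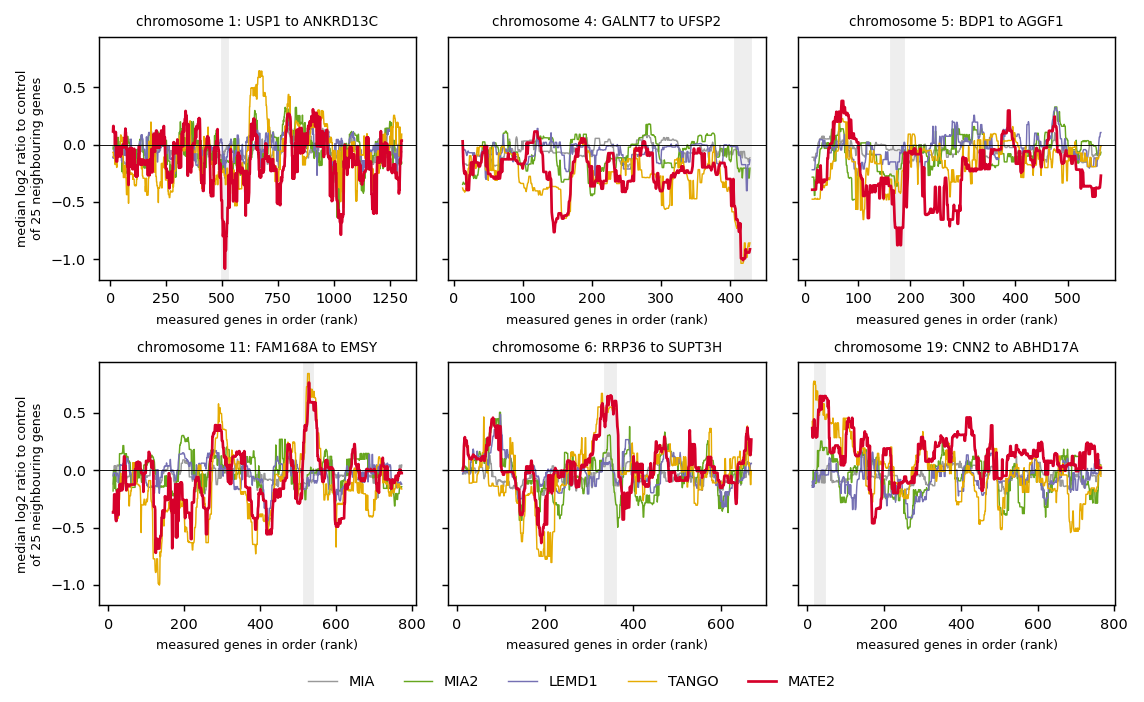
Median log2 ratio to the control array over runs of 25 neighbouring measured genes (vertical), plotted at the rank of the middle gene along each chromosome (horizontal), for the 5 siRNA-labelled arrays. The grey band marks the run named above each panel; the red line (MATE2 siRNA) reaches -1.08 on chromosome 1 and, with the TANGO siRNA line, -1.01 on chromosome 4 and 0.76 on chromosome 11.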

How the data were processed

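RNA of HSC3 cells had been labelled with Cy5 and hybridized to 6 one-colour CodeLink Human Whole Genome Bioarrays, 1 per condition, grouped here by the sample labels. Spot intensity comes from scanner exports that the authors deposited, written by the software CodeLink Expression Analysis, version 5.0.0.31312. It equals the mean brightness of a spot less its median local background, within 0.0001. The authors also deposited a table of normalized signal, which they quantile normalized. It is linear and not centred, and it served as an alternative. Of its values, 99.1% lay within 1% plus 1 of the normalization made here, and its scale and direction are those of the scanner values.

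From the scanner intensities, 320 of 53423 gene probes masked on any array were left out, the rest went through quantile normalization across all 6 arrays, 1 was set as the lowest value and log2 was taken (Python 3.11.15, numpy 2.4.6, pandas 2.3.3). Where a gene had several probes, the brightest by its mean log2 value on all 6 arrays stood for it. Symbols came from the platform annotation, updated through RefSeq, for 23311 probes, and from the accession for 649. Another 898 probes had several genes and 28245 none. Genes of the Y chromosome, XIST and TSIX were left out of the gene counts. A gene was called at 2-fold. No test between conditions was run. Having 1 array a side is what limits precision. Of the gene probes, 28700 were good on the control array and 29639 on the array labelled MATE2 siRNA.

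The genes named were SLC47A2 and the other siRNA targets, the 12 largest falls and rises among genes with a signal above the median of good probes, 199.8, up to 4 changed members of each of 37 lists (853 different genes), up to 8 genes each way set apart from all other arrays, and up to 4 genes of each run described. Other good probes of a gene are given where they were not changed 2-fold in the same direction. The members, lists and alternatives were chosen with earlier results of these data known. Genes near background on either array, GCLC, GCLM, KRT5, KRT14 and the genes shown for their promoters alone were named after their values were seen. As alternatives, arrays were scaled to their medians, quantile normalization was run on the 2 arrays alone or without the array labelled TANGO siRNA, and the rest were normexp with an offset of 50 (limma 3.58.1, R 4.3.3), no background correction, the deposited table, 3 other flag filters, 2 other comparators, an addition of 50 to each value, and averages over a gene's probes. Promoters were matched by symbol to RefSeq. A few members of the gene lists are counted but not reported here by name.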

Additional observations from a re-analysis of the deposited data

How the results depend on the processing

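The counts of probes and genes past 2-fold moved with background correction and with the flag filter. For probes lower, 7.55% of 26648 as reported, the count was 1214 with normexp, 1088 without background correction, 1235 with 50 added to the signal, 3222 with a good spot on at least 1 of the 2 arrays, 7469 without a flag filter and 1338 with the other 5 arrays' median as comparator. For probes higher, 1345 as reported, it was 670, 603, 690, 2664 and 6804 under the first 5 of these. For genes lower, 1466 as reported, it was 951 with normexp, 862 without background correction, 965 with 50 added and 2868 without a flag filter, and for genes higher, 746 as reported, 429, 389, 440 and 2089, with 1230 for a good spot on at least 1 array. A share of the added calls without a flag filter lies near background, where ratios have no order. Under median scaling 63.8% of the called probes were lower, beside 59.9% as reported.

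Of 160 named genes, 158 were past 2-fold and 107 of these under every alternative that gave a value. The sign turned for 6, all with that median as comparator: S100A2 at -0.058, SOX9 at 0.28, BIRC3 at 0.99, MMP7 at 0.26, MCM6 at 0.25 and MRPL2 at -0.46. With 50 added to the signal, ATP7A, SEC23B, SEC24B, DSG1, S100A7, ETV1, TGFA, CYLD, RELB, IL6R and IL1A were under 2-fold. FOSB, FOS, KIF23, DDB2, DNAJB11, H4C14 and COL1A1 were under 2-fold there as well. Of 37 lists, 25 kept the sign of their median under all 13 alternatives. The cause of these shifts was not tested. No paired analysis was possible because every label carries the same replicate number and each condition has 1 array. For the same reason no array could be left out of a condition.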
